A study of Mus musculus with 24 samples.

Results

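BCL2 family death and survival genes were followed in MIN6 cells, an insulin-secreting line from a mouse insulinoma, under endoplasmic reticulum (ER) stress. The family was represented by 10 genes chosen by name: the BH3-only genes Bbc3, Pmaip1, Bcl2l11, Bid and Bad, the effectors Bax and Bak1, and the anti-apoptotic genes Bcl2, Bcl2l1 and Mcl1. All 10 were among the 24421 genes of the count table, and 9 of them were among the 13761 genes with enough counts for testing. Pmaip1 was not. The cells carried a plasmid encoding either GFP alone (the control) or an EIF2A-GFP fusion, and then received 1 µM thapsigargin for 1 or 3 h or DMSO, written here as 0 h. Each of the 6 groups, called GFP or EIF2A at 0, 1 and 3 h, had 4 libraries of polyadenylated RNA, 24 in all. The plasmid's promoter, the share of cells that took it up and whether the 4 replicates were independent cultures were not given in the sources used here. Every p-value thus rests on how far these libraries varied, and that variation may be technical.

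The BCL2 family controls the permeability of the outer mitochondrial membrane. BAX and BAK1, once active, form pores there that release cytochrome c. BCL2, BCL2L1 (BCL-xL) and MCL1 hold them in check, and BH3-only proteins either bind these guardians or activate the effectors directly. Thapsigargin blocks the calcium pump of the ER, and prolonged ER stress is known to raise the BH3-only genes Bbc3 (PUMA), Pmaip1 (NOXA) and Bcl2l11 (BIM) in several cell types, in part through the transcription factors ATF4 and CHOP, the product of Ddit3. Much of the family is controlled on the protein, by turnover, phosphorylation or cleavage, which mRNA counts do not show.

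Depth ran from 10.5 to 22.2 M (mega) counts per library. Eif2a, the gene on the plasmid, checked the labels. In replicates 2 to 4 the libraries labelled EIF2A had more of it at every time, by a log2 ratio of 0.77 to 1.13. In replicate 1 it was higher in the libraries labelled GFP, with log2 ratios of -1.75, -1.90 and -1.78 at 0, 1 and 3 h. The labels were kept as given, and each comparison of constructs is given with and without replicate 1. Across the times of 1 construct, deviations correlated best between libraries of the same replicate number in 14 of 16 pairs. The comparisons of times were therefore also fitted with that number as a block (the replicate block). The 12 beta cell markers summed to 73100 to 109000 CPM (counts as parts per mega of the TMM-scaled library) in the libraries at 0 h and to 37600 to 62600 at 3 h, and 9 of them fell. Markers of acinar cells and of delta, PP and epsilon cells each averaged under 1 CPM. Over the libraries, the summed markers of duct cells ran from 313 to 1270 CPM, those of macrophages from 9.54 to 97.3, endothelial cells from 13.8 to 31.3 and mesenchymal cells from 2.77 to 25.5. These sums rest on part of each list. Only 3 of 6 duct, 2 of 6 macrophage, 2 of 5 endothelial and 2 of 6 mesenchymal markers averaged over 1 CPM.

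With thapsigargin, Bbc3 was the member with the largest change: its mRNA was 1.42-fold higher at 1 h and 3.01-fold higher at 3 h than at 0 h, averaged over both constructs. Mcl1, a guardian with a short-lived mRNA and protein, rose at 1 h by 0.28 ± 0.07 on the log2 scale (SE here and below). Bcl2, another guardian, fell at 1 h by 0.35 ± 0.11, and the effector Bax fell at 3 h by 0.40 ± 0.13. At 1 h, 2 of the 9 members rose and 1 fell, beside 13.1% and 9.74% of all genes tested, 22.8% in either direction. At 3 h, 1 member rose and 1 fell, beside 26% and 23.6% of all genes, 49.6% in either direction. In this fit, which has no block, the member count at 3 h was below the share of all genes called. With the block or without replicate 1, as given below, most members were called at 3 h, and so were most genes. In bulk RNA, less of an mRNA per cell and fewer cells that hold it cannot be told apart. The median log2 fold change of the 9 members was -0.13 at 1 h and -0.11 at 3 h, against -0.01 over all genes at both times. With the replicate block, 2 members rose and 5 fell at each time, while the shares of all genes that rose and fell were 27.8% and 29.2% at 1 h and 37.6% and 37.8% at 3 h. Without replicate 1, 2 rose and 4 fell at 1 h, beside 26.4% and 26.7% of all genes, and 1 rose and 5 fell at 3 h, beside 36.1% and 35.6%. Scaling by library totals alone moved the median of all genes at 3 h by 0.14 on the log2 scale, and with it the share of calls that were higher from 52.5% to 69.4%. The calls of Bbc3 and Mcl1 at 1 h were lost without the 6 libraries of replicate 2 (adjusted p = 0.0748 and 0.111).

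**Figure D1:**
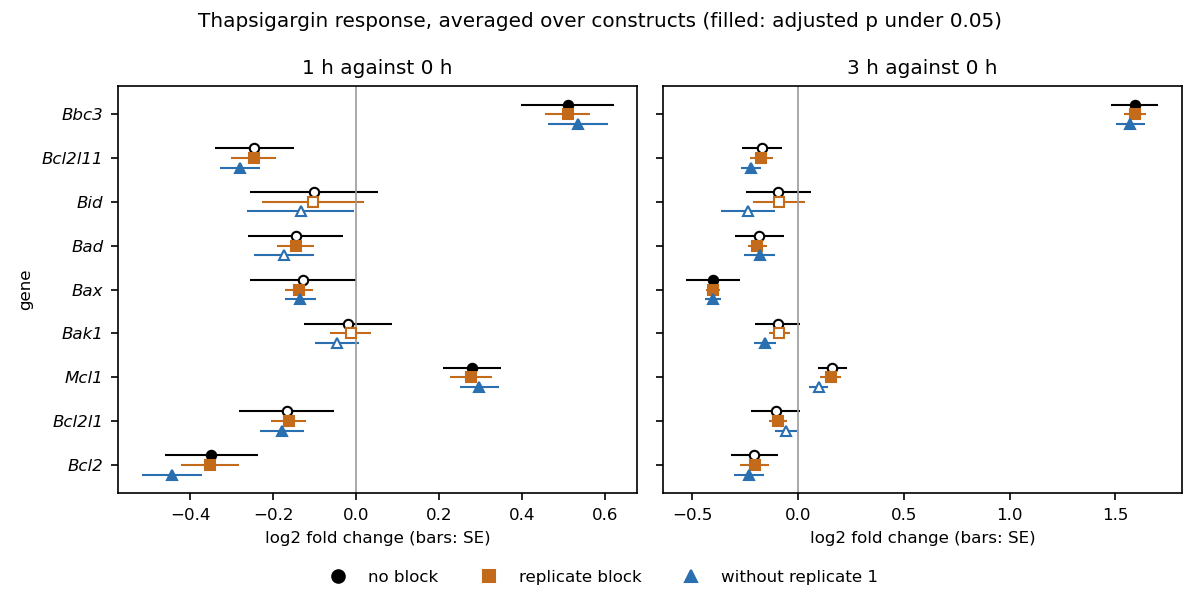
Log2 fold change of each tested member at 1 h (left) and 3 h (right) against 0 h, averaged over constructs, with SE as bars. Colours and shapes give the fit (no block, replicate block, without replicate 1), and filled points passed an adjusted p of 0.05. Bbc3 stands alone at 1.59 at 3 h, and the other members lie between -0.40 and 0.16 in the fit without a block.

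The level of each gene was compared between genes as CPM per kilobase (kb) of exonic length. Bax had the highest level, 111 ± 27.9 CPM per kb (SD over 24 libraries, the 6 groups included), and Mcl1 followed with 54.8 ± 6.77. The ranges of these genes over libraries, 73 to 158 and 40.8 to 66, did not meet. Bad had 19.7 ± 3.41, Bbc3 13.1 ± 6.77, Bak1 11.2 ± 1.49 and Bcl2l1 11.0 ± 1.86 CPM per kb. Bad, at 14.3 to 27.1 over the libraries, lay above all of Bak1, at 8.26 to 13.2. Bbc3 ranged from 5.81 to 28.6 and so overlapped the other 3, and Bcl2l1, at 8.5 to 15.2, overlapped both Bad and Bak1. The order of these means depended on the length used. With the longest transcript, Bcl2l1 ranked 4 in place of 6, Bbc3 5 in place of 4 and Bak1 6 in place of 5. Bcl2l11 stood at 5.47 ± 0.866 CPM per kb. Bcl2, with 1.26 ± 0.241, and Bid, with 0.912 ± 0.200, overlapped each other and lay below the other tested members. Pmaip1, which was not tested, was lower still, at 0.015 CPM per kb. Among the guardians the mRNA was thus mostly Mcl1, with Bcl2 the least abundant.

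**Figure D2:**
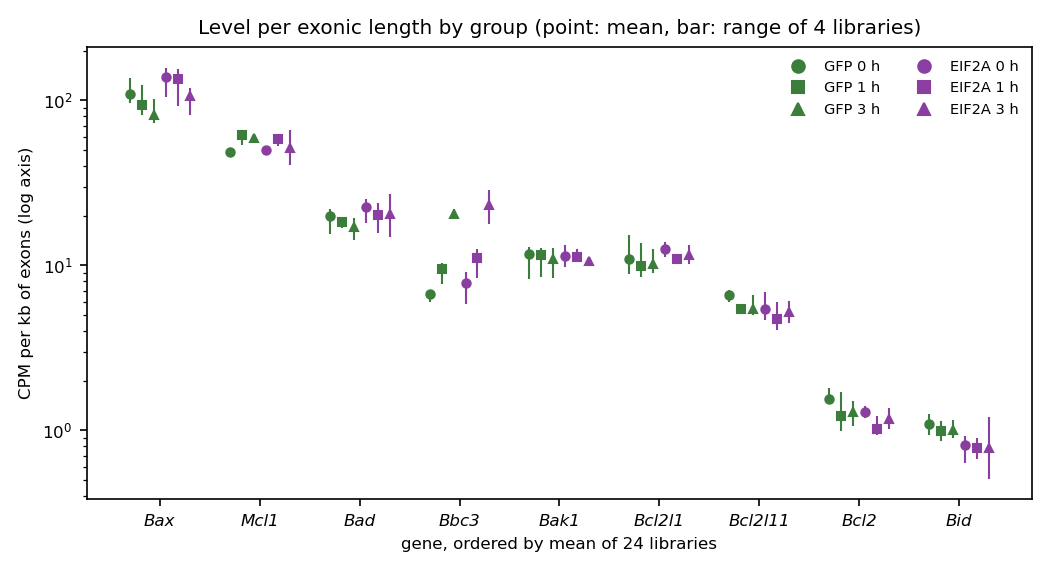
Mean level per kb of exons in each group (points, log axis) with the range of its 4 libraries (bars), for the 9 tested members. Pmaip1 is left out because many of its libraries had no count. Bax and Mcl1 lie highest, Bcl2 and Bid lowest, and the mean of Bbc3 is above those of Bak1 and Bcl2l1 in both constructs at 3 h.

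Bbc3 encodes PUMA, a BH3-only protein that binds all guardians and is a classic target of p53. Its gene occupies chromosome 7 from 16308393 to 16318205 on the plus strand of GRCm38. In the GFP libraries of replicates 1 to 4 it stood at 12.7, 14.3, 15 and 15.1 CPM at 0 h, at 16.4, 20.9, 21.9 and 22.1 at 1 h, and at 42.1, 40.5, 44.0 and 46.5 at 3 h. The 3 times did not overlap. In the EIF2A libraries it stood at 12.3, 15.1, 19.4 and 19.5 CPM at 0 h, at 17.7, 25.6, 24.2 and 26.7 at 1 h, and at 38.0, 48.1, 51.0 and 60.7 at 3 h. Here the ranges at 0 and 1 h overlapped and those at 3 h stood above both. Group means at 3 h were 43.3 ± 2.6 CPM (SD, n = 4) for GFP and 49.4 ± 9.35 for EIF2A. Each of the 8 libraries at 3 h exceeded its own 0 h library, by 1.40 to 1.73 on the log2 scale, and each of the 8 at 1 h did so by 0.32 to 0.77. Bbc3 rose by 0.51 ± 0.11 at 1 h (adjusted p = 0.00202) and by 1.59 ± 0.11 at 3 h (adjusted p = 3.36e-10).

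The RefSeq promoter table (GRCm38.p6) gives 3 start sites for Bbc3. The window of 250 bases before the middle start is shown because it held the only match to a forkhead (FOXO) core motif among the gene's 3 windows. It lies at chr7:16310011-16310260, plus strand, and capitals mark the match to GTAAACA, read here on the opposite strand, which begins 167 bases before the start.

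Bbc3 promoter: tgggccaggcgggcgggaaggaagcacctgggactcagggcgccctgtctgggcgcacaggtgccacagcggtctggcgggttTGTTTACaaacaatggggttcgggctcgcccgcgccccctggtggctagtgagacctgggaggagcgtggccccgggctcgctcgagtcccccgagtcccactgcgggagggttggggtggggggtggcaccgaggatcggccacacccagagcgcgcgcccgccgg

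Windows of 300 bases (250 before to 50 after the start) were searched on both strands for 8 motifs: TGATGNAA (the composite C/EBP-ATF site of ATF4 and CHOP), the forkhead core GTAAACA given above, the end of the ER stress element (CCACG), TGACGTCA and the shorter TGACGT it contains (cAMP response element), CACGTG (E box), TGCAAT (C/EBP-ATF) and the NF-κB consensus decamer, by name. The members had 15 windows. GTAAACA was found in 1 window each of Bbc3 and Bcl2l11, and in 3.65% of all 32851 windows. CCACG was found in 7 of the 15 windows of the members, of Bad, Bax, Bbc3 (all 3 of its windows), Bcl2l1 and Bcl2l11, and in 32.8% of all. CACGTG was found in 1 Bbc3 window and in 1 of Bax, and in 7.15% of all. TGACGT was found in 1 window of Bcl2 and in 7.51% of all. The other 4 motifs, TGATGNAA (3.97% of all windows), TGACGTCA (1.79%), TGCAAT (8.4%) and the NF-κB decamer (0.155%), were not found in the windows of the members. These are letter matches only, and the motif shown was picked after the matches were known.

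Pmaip1, the gene of NOXA, which binds mainly MCL1, had at most 4 counts in a library. In GFP it had 0 counts in 78.1 M at 0 h, which allows up to 0.0384 CPM, 0 at 1 h and 7 at 3 h. In EIF2A it had 1, 1 and 8 counts at 0, 1 and 3 h. Replicate 1 had none in any group. For GFP, the level at 3 h was 2.47-fold the floor of 3 counts over the 0 h group. This ratio leaves out the counting error of the 7 counts at 3 h, so it is not a lower limit. For EIF2A the ratio of 3 h to 0 h was 6.75, with an exact 95% interval from 0.905 to 299. The interval and the floor cover counting error only, and reads carry no molecular identifiers. No test was made, since the gene did not pass the filter on low counts.

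Bcl2l11 encodes BIM, a BH3-only protein that binds all guardians and activates BAX, and lies on chromosome 2 at 128126038 to 128162547 (plus strand). In GFP, replicates 1 to 4 stood at 48.2, 54.4, 52.4 and 57.1 CPM at 0 h, at 45.5, 44.7, 43.2 and 40.9 at 1 h, and at 53.1, 40.1, 40.4 and 40.0 at 3 h. In EIF2A they stood at 55.3, 39.4, 42.6 and 37.3 CPM at 0 h, at 48.3, 32.5, 35.1 and 35.5 at 1 h, and at 49.1, 42.0, 41.4 and 35.8 at 3 h. Replicate 1 had the highest value in 5 of the 6 groups. All 8 libraries at 1 h were below their own 0 h library, and 6 of 8 were at 3 h. The log2 fold change was -0.25 ± 0.10 at 1 h (adjusted p = 0.0702) and -0.17 ± 0.10 at 3 h (adjusted p = 0.143). Bcl2l11 fell at both times with the replicate block (adjusted p = 3.25e-04 and 0.00525), and so it did without replicate 1 (6.67e-05 and 3.28e-04).

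The BH3-only genes Bad and Bid had small fold changes. BAD, which binds BCL2 and BCL-xL when it is not phosphorylated, had its gene on chromosome 19 at 6941861 to 6951899 (plus strand). Bad ranged from 36.6 to 69.2 CPM over the 24 libraries, and its log2 fold change was -0.15 ± 0.11 at 1 h and -0.18 ± 0.11 at 3 h (adjusted p = 0.414 and 0.194). With the replicate block it fell at both times (adjusted p = 0.00716 and 3.87e-04). BID, which caspase 8 cleaves to link death receptors to mitochondria, had its gene on chromosome 6 at 120891930 to 120916853 (minus strand). Bid ranged from 1.81 to 4.42 CPM and had log2 fold changes of -0.10 ± 0.15 and -0.09 ± 0.15 (adjusted p = 0.715 and 0.647). Both genes share exonic bases with a gene on the opposite strand: 17.7% of the exonic length of Bid with Bcl2l13 (83.6 CPM on average) and 20.5% of that of Bad with Gpr137 (49.5 CPM). Use of strand in the counting was not given in the sources used here. This makes the level of Bid in particular uncertain.

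Bax was lower at 3 h than at 0 h in every replicate pair. It encodes a pore-forming effector and lies on chromosome 7 at 45461697 to 45466898 (minus strand). Gm45808, on the same strand and without counts of its own here, shares 12.2% of the exonic length of Bax. In GFP, replicates 1 to 4 stood at 214, 155, 168 and 151 CPM at 0 h, at 196, 134, 134 and 128 at 1 h, and at 160, 119, 123 and 115 at 3 h. In EIF2A they stood at 166, 224, 248 and 240 CPM at 0 h, at 146, 229, 234 and 243 at 1 h, and at 129, 172, 181 and 187 at 3 h. Replicate 1 was the highest of the GFP libraries and the lowest of the EIF2A libraries at every time. Against the own 0 h library, the 3 h library was lower in 8 of 8 pairs, by a log2 difference between -0.46 and -0.36, although the ranges of the groups overlapped. The log2 fold change at 3 h was -0.40 ± 0.13 (adjusted p = 0.0121), and -0.26 with library totals as the scale (adjusted p = 0.0604). It was -0.41, -0.38 and -0.41 without replicates 2, 3 and 4 (adjusted p = 0.0763, 0.0917 and 0.0525), while the replicate block gave -0.40 ± 0.03 (adjusted p = 8.08e-12). At 1 h the fold change was -0.13 ± 0.13 (adjusted p = 0.541). In the block fit Bax fell at 1 h as well (adjusted p = 7.19e-04). The beta cell markers fell at 3 h too, as given above, and their part in the fall of Bax was not tested.

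Bak1, the other effector, on chromosome 17 at 27019810 to 27029009 (minus strand), ranged from 19.9 to 31.9 CPM. Its log2 fold change was -0.02 ± 0.11 at 1 h and -0.10 ± 0.11 at 3 h (adjusted p = 0.933 and 0.482). The replicate block did not change these calls. Without replicate 1 Bak1 fell at 3 h by 0.16 ± 0.05 on the log2 scale (adjusted p = 0.0123). Entries of Ggnbp1 on the opposite strand, at 4.72 CPM on average, share 18.2% and 7.35% of the exonic length of Bak1.

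Mcl1 was higher at 1 h than at 0 h in every replicate pair of both constructs. It lies on chromosome 3 at 95658788 to 95663176 (plus strand). In GFP, replicates 1 to 4 stood at 168, 167, 164 and 165 CPM at 0 h, at 184, 221, 219 and 216 at 1 h, and at 194, 208, 200 and 205 at 3 h. Neither later time overlapped 0 h. In EIF2A they stood at 167, 176, 171 and 168 CPM at 0 h, at 206, 208, 201 and 181 at 1 h, and at 226, 175, 163 and 139 at 3 h. At 3 h, replicate 1 was the highest and replicates 2 to 4 lay around or below the 0 h values. Averaged over constructs, Mcl1 rose by 0.28 ± 0.07 at 1 h (adjusted p = 0.00598), in 8 of 8 pairs. At 3 h the log2 fold change was 0.16 ± 0.07 (adjusted p = 0.0611), with 5 of 8 pairs higher. Mcl1 rose at 3 h with the replicate block (0.15 ± 0.05, adjusted p = 0.00725), and without replicate 1 it did not pass (0.10 ± 0.05, adjusted p = 0.0697). Its call at 1 h was lost without replicate 2 or 3 (adjusted p = 0.111 and 0.116).

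Bcl2, the founding guardian, which also sits on the ER, lies on chromosome 1 at 106538178 to 106714274 (minus strand). In GFP, replicates 1 to 4 stood at 16.6, 13.9, 13.5 and 13.2 CPM at 0 h, at 15.6, 10.4, 9.07 and 9.54 at 1 h, and at 13.8, 11.0, 13.2 and 9.82 at 3 h. In EIF2A they stood at 12.8, 10.9, 12 and 11.8 CPM at 0 h, at 11.2, 8.80, 8.82 and 8.60 at 1 h, and at 12.5, 10.9, 9.36 and 9.95 at 3 h. Every library at 1 h was below its own 0 h library, and the lowest values of both constructs were at 1 h. Bcl2 fell at 1 h by 0.35 ± 0.11 (adjusted p = 0.0277). Leaving out replicate 2, 3 or 4 ended that call (adjusted p = 0.192, 0.238 and 0.163), and so did leaving out any of 7 single libraries (adjusted p between 0.0551 and 0.0677). The replicate block gave the same fold change at 1 h (adjusted p = 9.21e-05). At 3 h it was -0.21 ± 0.11 (adjusted p = 0.132), and Bcl2 fell with the block (adjusted p = 0.00825).

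Bcl2l1, whose main product BCL-xL is a guardian and which lies on chromosome 2 at 152780668 to 152831728 (minus strand), did not pass the test without the block. It ranged from 39.0 to 69.8 CPM. Its log2 fold change was -0.17 ± 0.12 at 1 h and -0.11 ± 0.11 at 3 h (adjusted p = 0.338 and 0.473), and 0.03 at 3 h with library totals as the scale. With the replicate block it fell at both times (adjusted p = 0.00169 and 0.0388). The counts are per gene and do not separate its long and short splice forms, which have opposed functions.

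**Figure D3:**
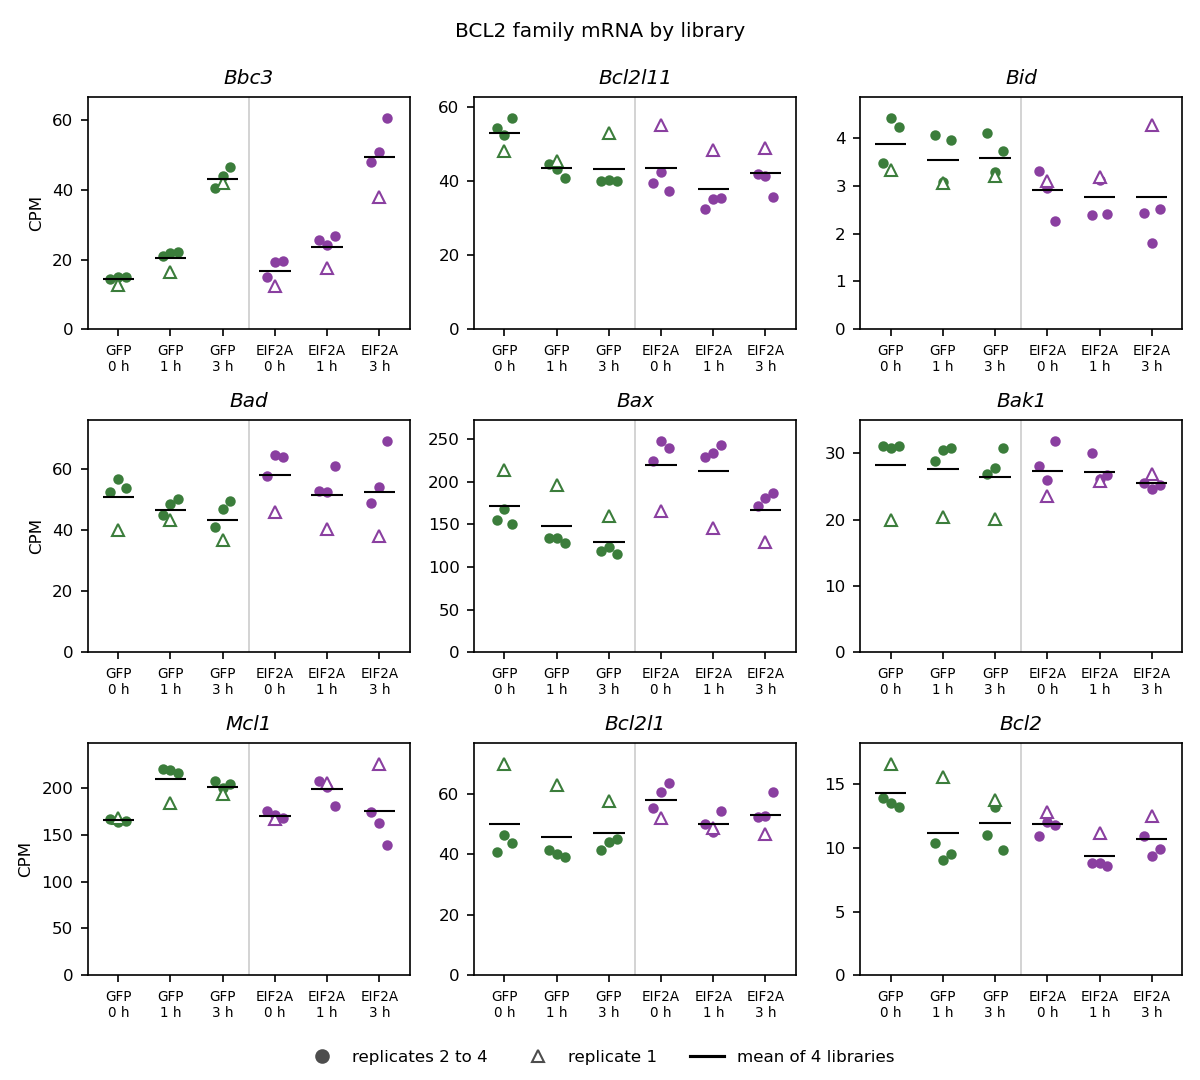
CPM of the 9 tested members in each library, by group. Filled circles are replicates 2 to 4, open triangles replicate 1, and black lines the mean of 4 libraries. Bbc3 steps up at each time in both constructs, and for Bax and Bcl2l1 the triangles lie above the circles in GFP and, in all but 1 group, below them in EIF2A.

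Each construct was then taken on its own. In GFP, 2 of the 9 members rose and 0 fell at 1 h, beside 5.78% and 2.39% of all genes, and 2 rose and 0 fell at 3 h, beside 18.4% and 14.6%. In EIF2A, 1 rose and 0 fell at 1 h, beside 6.55% and 3.94%, and 1 rose and 0 fell at 3 h, beside 19.6% and 16.6%. Bbc3 was called in each of these 4 comparisons, with log2 fold changes of 0.51 ± 0.16 in both constructs at 1 h (adjusted p = 0.0495 in GFP and 0.0417 in EIF2A), 1.60 ± 0.16 in GFP at 3 h (1.88e-07) and 1.58 ± 0.16 in EIF2A at 3 h (1.80e-07). The call at 1 h was lost without any 1 of 7 single libraries in GFP (adjusted p between 0.0869 and 0.142) and of 5 in EIF2A (between 0.1 and 0.123). These groups include replicate 1, whose Eif2a level goes against its label. Without it, 2 members rose and 3 fell at 1 h in GFP, and 2 rose and 4 fell at 3 h. Of 13731 genes, 5413 and 8648 were then called. In EIF2A, 2 rose and 3 fell at 1 h, and 1 rose and 2 fell at 3 h, with 5762 and 8598 genes called. In the fit with the replicate block, 5 and 6 members were called in GFP at 1 and 3 h, beside 44.6% and 67.1% of all genes, and 6 and 3 in EIF2A, beside 45.3% and 66.2%. At 1 h in GFP, Bbc3 and Mcl1 rose and Bax, Bcl2 and Bcl2l11 fell in that fit, and at 3 h Bad was added to those that fell. At 1 h in EIF2A, Bbc3 and Mcl1 rose and Bad, Bcl2, Bcl2l1 and Bcl2l11 fell, and at 3 h Bbc3 rose and Bad and Bax fell. Mcl1 was the other gene called in GFP, with 0.34 ± 0.10 at 1 h and 0.28 ± 0.10 at 3 h (adjusted p = 0.0387 and 0.0334). Each of these 2 calls was lost without any 1 of 7 single libraries (adjusted p between 0.0635 and 0.118 at 1 h and between 0.0537 and 0.0809 at 3 h). In EIF2A, Mcl1 had 0.22 ± 0.10 at 1 h (adjusted p = 0.174, and 0.0144 with the replicate block) and 0.04 ± 0.10 at 3 h (adjusted p = 0.789). Bax at 3 h had -0.41 ± 0.18 in GFP and -0.39 ± 0.18 in EIF2A (adjusted p = 0.0855 and 0.0977), and with the block it fell in both (1.03e-08 and 2.73e-08). Bcl2 at 1 h had -0.36 ± 0.16 in GFP and -0.34 ± 0.16 in EIF2A (adjusted p = 0.197 in both), and with the block it fell in both (0.00160 and 0.0113). Bcl2l11 at 3 h had -0.29 ± 0.13 in GFP (adjusted p = 0.107) and -0.06 ± 0.14 in EIF2A (adjusted p = 0.801), and with the block it fell in GFP (8.47e-04). At 1 h its values were -0.28 ± 0.13 and -0.21 ± 0.14 (adjusted p = 0.242 and 0.398). Bax at 1 h had -0.22 ± 0.18 in GFP and -0.04 ± 0.18 in EIF2A (adjusted p = 0.593 and 0.95), and Bcl2 at 3 h had -0.26 ± 0.16 and -0.15 ± 0.16 (adjusted p = 0.221 and 0.505). The log2 fold changes of the other 4 members did not pass the test without the block, with adjusted p between 0.316 and 0.992. In GFP and EIF2A at 1 h, they were -0.13 and -0.21 for Bcl2l1, -0.12 and -0.17 for Bad, -0.13 and -0.07 for Bid, and -0.03 and -0.01 for Bak1. At 3 h they were -0.09 and -0.12 for Bcl2l1, -0.22 and -0.14 for Bad, -0.11 and -0.08 for Bid, and -0.10 and -0.10 for Bak1. Their SEs were 0.15 to 0.22. Atf4 rose in GFP and EIF2A by 0.59 and 0.49 at 1 h and by 0.81 and 0.65 at 3 h, and Ddit3 by 1.18 and 1.11 at 1 h and by 2.03 and 1.70 at 3 h. Eif2a had 0.34 and 0.42 at 1 h and 0.37 and 0.43 at 3 h, with SEs of 0.51 and 0.52. Scaling by library totals moved the share of calls that were higher at 3 h from 55.9% to 71.4% in GFP and from 54.2% to 74.1% in EIF2A.

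Whether the response differed between constructs was tested by the interaction, in which the change with time in GFP is subtracted from that in EIF2A. None of the 9 members was called by edgeR at 1 or 3 h, 0 had an unadjusted p under 0.05 at either time, and DESeq2 called 0; of all genes 0% were called. The estimates lay between -0.12 and 0.17 at 1 h and between -0.24 and 0.23 at 3 h, with SEs of 0.14 to 0.31. For Bbc3 they were 0.01 ± 0.22 at 1 h and -0.02 ± 0.22 at 3 h. At 1 and 3 h the others were 0.08 and 0.23 for Bcl2l11, 0.06 and 0.03 for Bid, -0.05 and 0.08 for Bad, 0.17 and 0.02 for Bax, 0.03 and 0.00 for Bak1, -0.12 and -0.24 for Mcl1, 0.02 and 0.11 for Bcl2, and -0.08 and -0.03 for Bcl2l1. Atf4 had -0.10 and -0.16, Ddit3 -0.06 and -0.33, and Eif2a 0.08 and 0.07. Without replicate 1, 0 members were called at 1 h (0.816% of all genes) and 2 at 3 h, 1 in each direction (4.12% of all genes, 1.55% positive and 2.57% negative). These were Bcl2l11, with an estimate of 0.44 ± 0.10 (adjusted p = 0.0113), and Mcl1, with -0.42 ± 0.09 (adjusted p = 0.0136). With the replicate block and without replicate 1, 2 members were also called at 1 h, where 7.62% of all genes were. These were Bax, with 0.25 ± 0.05 (adjusted p = 0.00373), and Mcl1, with -0.21 ± 0.06 (adjusted p = 0.0235). In replicates 2 to 4, the change of Bcl2l11 from 0 to 3 h was -0.44 ± 0.07 in GFP and 0.00 ± 0.07 in EIF2A. That of Mcl1 was 0.30 ± 0.06 in GFP and -0.11 ± 0.07 in EIF2A. Bbc3 had 0.02 ± 0.14 at 3 h in those replicates, while the ER stress genes Atf4 and Ddit3 had -0.43 ± 0.07 and -0.59 ± 0.10 (adjusted p = 0.00108 and 0.00216). The Ddit3 estimate came with a higher level in EIF2A at each time. At 0 h its libraries of replicates 2 to 4 ran from 116 to 132 CPM in EIF2A and 54.9 to 57.8 in GFP. At 1 h these ranges were 251 to 277 and 136 to 157. At 3 h they were 334 to 397 and 242 to 260. Atf4 ran from 611 to 652 in EIF2A and 544 to 548 in GFP at 0 h. At 1 h its ranges overlapped, and at 3 h they were 845 to 915 and 994 to 1020.

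The levels of the constructs were compared at each time. In the 4 replicates together, 0 of the 9 members differed at 0, 1 or 3 h by edgeR, where 0.0218%, 1.02% and 0% of all genes did. At an unadjusted p under 0.05 there were 0, 1 and 0 members, and DESeq2 called 0, 1 and 0. The 1 at 1 h was Bax (log2 ratio of EIF2A to GFP 0.53 ± 0.18, adjusted p = 0.0836 by edgeR and 0.0391 by DESeq2). Its ratios at 0 and 3 h were 0.35 ± 0.18 and 0.37 ± 0.18. At 0, 1 and 3 h the log2 ratios were 0.21, 0.21 and 0.19 for Bbc3, -0.28, -0.20 and -0.04 for Bcl2l11, -0.41, -0.35 and -0.38 for Bid, and 0.19, 0.15 and 0.28 for Bad. They were -0.05, -0.02 and -0.05 for Bak1, 0.04, -0.08 and -0.20 for Mcl1, -0.27, -0.25 and -0.16 for Bcl2, and 0.21, 0.13 and 0.18 for Bcl2l1. Atf4 had 0.11, 0.01 and -0.05, Ddit3 0.70, 0.64 and 0.37, and Eif2a -0.02, 0.06 and 0.05. Without replicate 1, 3 members were higher and 3 lower in the libraries labelled EIF2A at 0 h, 3 and 3 at 1 h, and 4 and 3 at 3 h. Of all genes, 31.9% were then higher and 32.9% lower at 0 h, 32.7% and 37.3% at 1 h, and 32.5% and 35.1% at 3 h (64.8%, 70% and 67.6% in all), so that the members were called about as often as genes in general. Depth moved with the construct: replicates 2 to 4 had 10.5 to 16.6 M counts in EIF2A and 16.7 to 22.2 M in GFP, and reads outside any gene made 13.3 to 17.9% of their counts in EIF2A and 10.9 to 13% in GFP. The part of this in the differences was not tested.

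Bax was higher in the libraries labelled EIF2A in replicates 2 to 4, with log2 ratios of 0.59 ± 0.05 at 0 h, 0.84 ± 0.05 at 1 h and 0.60 ± 0.05 at 3 h (adjusted p = 1.65e-08, 8.77e-11 and 1.14e-08). The 3 libraries of each construct did not overlap at any time. In replicate 1 the ratio was reversed at each time, at -0.37, -0.42 and -0.32. Bcl2l1 was also higher in EIF2A in replicates 2 to 4, by 0.46 ± 0.07, 0.33 ± 0.07 and 0.35 ± 0.07 (adjusted p = 2.44e-05, 5.50e-04 and 3.35e-04), and replicate 1 was again reversed, at -0.43, -0.37 and -0.30. An effector and a guardian were thus both higher in the same libraries. Bbc3 was higher by 0.27 ± 0.11, 0.24 ± 0.10 and 0.29 ± 0.08 (adjusted p = 0.0363, 0.0322 and 0.00562), and in replicate 1 its ratios were -0.04, 0.11 and -0.15. Bad was higher at 3 h by 0.33 ± 0.10 (adjusted p = 0.00771), and its ratio in replicate 1 was 0.06 at that time.

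Other members were lower in the libraries labelled EIF2A of replicates 2 to 4. Bcl2l11 had log2 ratios of -0.46 ± 0.07 at 0 h and -0.32 ± 0.07 at 1 h (adjusted p = 9.39e-06 and 3.49e-04), and -0.01 ± 0.07 at 3 h (adjusted p = 0.855). Mcl1 was level at 0 h (0.06 ± 0.07, adjusted p = 0.477) and lower at 1 h (-0.15 ± 0.07, adjusted p = 0.0434) and at 3 h (-0.36 ± 0.07, adjusted p = 7.19e-05). Bid was lower at all 3 times, by log2 ratios of -0.48 ± 0.18, -0.50 ± 0.18 and -0.72 ± 0.18 (adjusted p = 0.0273, 0.0197 and 0.00133), within the limit that its overlap with Bcl2l13 sets. Bcl2 was lower at 0 h (-0.24 ± 0.10, adjusted p = 0.0457), and Bak1 at 3 h (-0.18 ± 0.07, adjusted p = 0.0333). Replicate 1 was not reversed for all of these members. Its ratios at 0, 1 and 3 h were -0.37, -0.48 and -0.14 for Bcl2, lower in EIF2A each time. They were 0.20, 0.09 and -0.11 for Bcl2l11, and -0.10, 0.06 and 0.41 for Bid. For Mcl1 they were -0.01, 0.16 and 0.22, and for Bak1 0.25, 0.34 and 0.42.

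**Figure D4:**
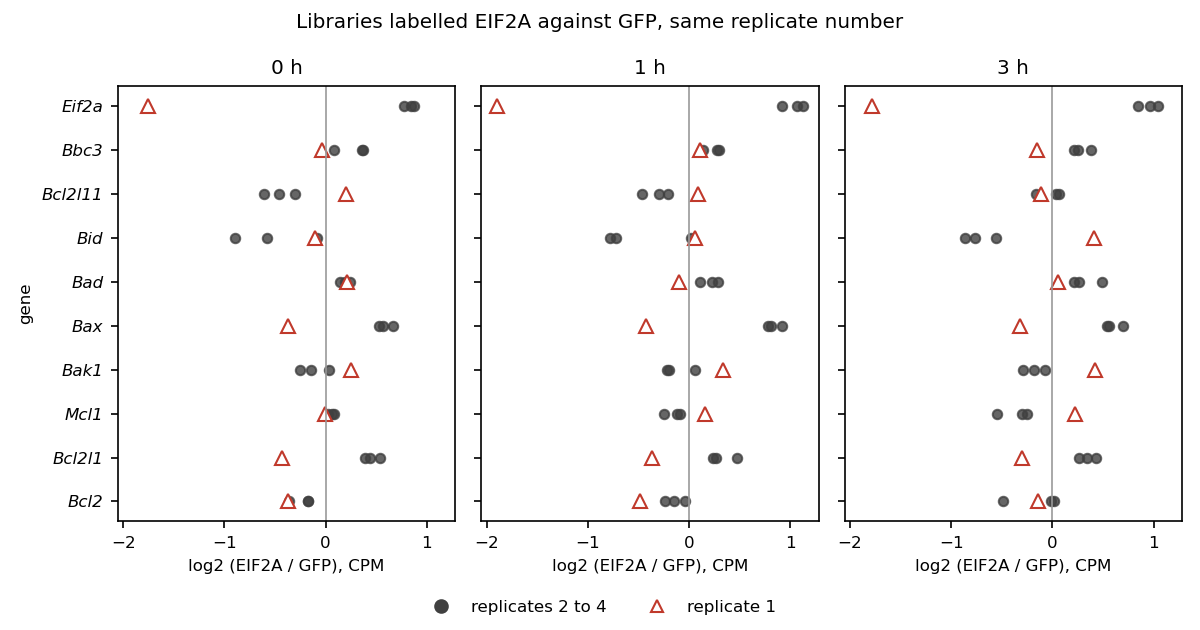
Log2 ratio of the CPM in the library labelled EIF2A to that in the GFP library of the same replicate number, at 0, 1 and 3 h, for Eif2a and the 9 tested members. Circles are replicates 2 to 4 and open triangles replicate 1. For Eif2a, Bax and Bcl2l1 the triangle lies on the other side of 0 from all 3 circles at each time.

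Genes most like each member over the 24 libraries were found by Pearson's r of log2 CPM, after the mean of each construct and replicate number was subtracted, among the other genes of at least 5 CPM on average. The libraries share the time course, so any gene that answers thapsigargin in steps resembles another. Closest to Bbc3 were Ppp1r15a (r = 0.991), which encodes the stress-induced phosphatase subunit GADD34, Arfrp1 (0.989) and Tsc22d3 (0.988). Closest to Mcl1 were Hmgcs1 (0.946), Tiparp (0.939) and Hspa5 (0.93), the last of which encodes the ER chaperone BiP. Closest to Bax were Lamtor2 (0.984), Atp5g1 and Anapc13 (both 0.983). The best match was weaker for Bcl2l1 (Coq2, 0.929), Bcl2 (Trappc10, 0.894), Bad (Fbxl16, 0.883), Bcl2l11 (Paqr8, 0.86), Bak1 (Gria3, 0.789) and Bid (Ubtd1, 0.686).

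Other members of the BCL2 family were taken from a list of 17 genes, of which 12 were tested. At 3 h against 0 h, 3 rose and 3 fell, with a median log2 fold change of -0.04, and with the replicate block 4 rose and 5 fell. For this list and those that follow, the shares of all genes that rose and fell at 3 h were 26% and 23.6% without the block, 37.6% and 37.8% with it, and 36.1% and 35.6% without replicate 1. Hrk, another BH3-only gene, rose by 2.27 ± 0.30 (adjusted p = 2.05e-06) from a low level, 1.72 CPM on average, and Bnip2 rose by 0.68 ± 0.12. Bik, also BH3-only, had 0.797 CPM and fell by 0.87 ± 0.33, the BAX-like gene Bok fell by 0.70 ± 0.16, and the mitophagy receptor Bnip3l fell by 0.70 ± 0.20. Hrk was thus a further BH3-only gene whose mRNA rose beside that of Bbc3.

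Of 14 genes listed as upstream regulators of BH3-only genes, 11 rose and 0 fell at 3 h, beside 26% and 23.6% of all genes, with a median of 1.04. The list includes Ppp1r15a, a phosphatase subunit gene that is itself stress-induced, and whether the listed genes act on the members was not tested. Among them Atf3 rose by 3.42 ± 0.25, Trib3 by 2.84 ± 0.24, Ddit3 by 1.87 ± 0.20, Ppp1r15a by 1.85 ± 0.07 and Atf4 by 0.73 ± 0.07. With the replicate block 12 rose and 2 fell, and without replicate 1, 11 rose and 1 fell. At 1 h, Atf4 rose by 0.54 ± 0.07 and Ddit3 by 1.14 ± 0.19. Eif2a had 0.38 ± 0.36 at 1 h and 0.40 ± 0.36 at 3 h (adjusted p = 0.528 and 0.388), and with the block it rose at both times (6.61e-09 and 1.80e-10). Of 15 targets of p53 outside the family, 6 rose and 4 fell at 3 h, beside the same 26% and 23.6% of all genes. Sesn2, which ATF4 also induces, rose by 1.93 ± 0.07 and the nuclease gene Aen by 0.78 ± 0.14, whereas Sesn1 fell by 0.91 ± 0.11, Ccng1 by 0.59 ± 0.10 and Zmat3 by 0.45 ± 0.08. With the block 9 rose and 5 fell.

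Downstream of the mitochondria, 6 of 19 tested genes for caspases, the apoptosome and inhibitors of apoptosis rose and 6 fell at 3 h, with a median of -0.02, where 26% and 23.6% of all genes did. Casp2 rose by 0.93 ± 0.08, Aifm1 by 0.70 ± 0.07 and the inhibitor gene Birc2 by 0.48 ± 0.06, while Birc5 (survivin) fell by 0.58 ± 0.05 and Cycs, the gene of cytochrome c, by 0.39 ± 0.05. With the block 9 rose and 8 fell. In the death receptor pathway, 6 of 12 rose and 2 fell: Tnfaip3 rose by 0.90 ± 0.21, Traf2 by 0.76 ± 0.14, Ripk1 by 0.55 ± 0.05 and Casp8, the enzyme that cleaves BID, by 0.35 ± 0.10. Cflar, the gene of the caspase 8 inhibitor c-FLIP, fell by 0.46 ± 0.10. With the block 9 rose and 3 fell.

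Of 6 genes for the turnover and transcription of MCL1, 2 rose and 1 fell at 3 h, beside 26% and 23.6% of all genes. With the block these counts were 2 and 2, beside 37.6% and 37.8%. The ubiquitin ligase gene Fbxw7 fell by 0.41 ± 0.08, Btrc rose by 0.20 ± 0.07 and the transcription kinase gene Cdk9 rose by 0.35 ± 0.12. Of 14 partners at the outer mitochondrial membrane and the ER, 2 rose and 6 fell, beside the same 26% and 23.6%, with a median of -0.19. Vdac1, a channel of the outer membrane, fell by 0.79 ± 0.15, Tmbim6 (BAX inhibitor 1, in the ER) by 0.65 ± 0.16, Mff by 0.29 ± 0.07 and Mfn2 by 0.22 ± 0.05, and Mfn1 rose by 0.30 ± 0.07. With the block 2 rose and 9 fell.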

How the data were processed

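Gene counts from 24 libraries of MIN6 cells were used (stranded mRNA kit, per the labels' protocols). Per the submitters' processing notes, bcl2fastq and STAR were used with build mm10. The counting program, its strand setting and the annotation were not given in the sources used here. Each deposited value is an unnormalized whole-number count of reads for a gene. 2 lines that name no gene, with 11.3 to 18.4% of the counts of a library, were left out. Groups and replicate numbers came from the sample titles, and columns were matched through the sample descriptions.

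The test was edgeR's (4.0.16, R 4.3.3), after scaling by TMM and its standard filter (minimum count 10, minimum total 15), with a robust quasi-likelihood fit of 6 group means (18 residual degrees of freedom), and Benjamini-Hochberg adjustment over all 13761 genes per comparison. An adjusted p under 0.05 is written as rose, fell or called. CPM uses TMM library sizes. At the lowest depth 1 CPM is about 10.5 counts. The fit was run on simulated data in which libraries varied independently, without construct differences or a replicate that stood apart. That run thus does not show how the fit behaves with those features of the data. Exonic lengths, overlaps and gene positions came from GENCODE M21 (GRCm38, the same build as mm10), and promoters from RefSeq.

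Deviations of libraries with the same replicate number correlated at 0.51 to 0.933 across the times of a construct (16 pairs). These values alone do not show that the numbers pair libraries. Replicate 1 stood apart, which gives the other replicates of a group a shared deviation whatever their number. In 14 of the 16 pairs the correlation was highest with the library of the same number. The exceptions were replicates 2 and 4 of GFP between 0 and 3 h. On this basis a block was fitted (12 residual degrees of freedom). The numbers come from the titles, which do not say what they mark. Between constructs the correlation was -0.663 to -0.159 (12 pairs). Over the tested genes, replicate 1 deviated mostly in opposite directions in the constructs (-0.663, -0.643 and -0.603 at 0, 1 and 3 h). That lowers the values between constructs whether or not the numbers pair libraries. Not every gene did so: at 1 h, Bcl2 was highest in replicate 1 in both constructs. Pairing between constructs thus could not be judged, and the main comparisons there used none. Alternatives were library totals, RLE factors, DESeq2 1.42.0, no filter, the block, and leaving out each replicate or library.

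The rule names all members, Atf4, Ddit3 and Eif2a in each comparison. From each other list, the counts and at most 5 called genes of smallest p at 3 h were given, or, with no call, the 2 of highest level. The 3 genes most like each member were ranked by Pearson's r, of which the best is printed for some. The markers of 1 cell type are not reported here. The members and lists were chosen with earlier results of these data known.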

Additional observations from a re-analysis of the deposited data

Results flagged for a closer look

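In each of the 54 combinations of a tested member and a group, the highest and the lowest of the 4 libraries were compared with the other 3. A library was taken to stand apart where its gap to the nearest one, divided by the range of the group, was above Dixon's 95% critical value for 4 libraries. Chance marks about 1 group in 20. There were 8 such combinations, and in all 8 the library apart was of replicate 1, whose Eif2a level goes against its label.

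Bax stood apart in 3 groups: 196 CPM in GFP at 1 h, with the others at 128 to 134, 160 CPM in GFP at 3 h, with the others at 115 to 123, and 146 CPM in EIF2A at 1 h, with the others at 229 to 243. Bcl2l1 had 62.8 CPM in GFP at 1 h, with the others at 39 to 41.3. Mcl1 had 184 CPM in GFP at 1 h, below the others at 216 to 221. Bcl2l11 had 53.1 CPM in GFP at 3 h, with the others at 40 to 40.4, and Bcl2 had 11.2 CPM in EIF2A at 1 h, with the others at 8.6 to 8.82. Bak1 had 19.9 CPM in GFP at 0 h, below the others at 30.9 to 31.2. The cause was not tested. No member was called in an interaction over all 4 replicates.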

How the results depend on the processing

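With the replicate block the number of members called moved from 3 to 7 (1 h, averaged) and from 2 to 7 (3 h, averaged), and within constructs from 2 to 5 (1 h) and 2 to 6 (3 h) in GFP, and from 1 to 6 (1 h) and 1 to 3 (3 h) in EIF2A. With the block and without replicate 1 together these counts were 7, 7, 6, 6, 6 and 4, where 61.1%, 76.2%, 51.9%, 70.1%, 51.5% and 68.2% of all genes were called. In that fit the construct comparisons gave 7, 7 and 7 (70%, 74.5% and 73.1% of all genes) and the interactions 2 and 2 (7.62% and 14.2%). Between constructs, where pairing by number could not be judged, the block alone called 0 members at each time. It gave Eif2a at 0 h a log2 ratio of 0.25, and 0.83 without replicate 1, against -0.02 without a block. In the block fit without replicate 1, Mcl1 at 3 h in EIF2A was -0.11, Atf4 between constructs at 1 h was -0.02, and the interactions were -0.03 (Bbc3), -0.01 (Bid) and 0.02 (Bad) at 1 h and 0.02 (Bbc3), -0.06 (Bak1) and -0.24 (Bid) at 3 h. The block put Bak1 at 1 h in EIF2A at 0.00. Of all genes, the block called 7843 and 10381 at 1 and 3 h averaged, against 3142 and 6830, and 1333, 2890 and 1054 between constructs, against 3, 141 and 0. Without replicate 1 the counts were 7292 and 9840, and 8904, 9609 and 9279. The cause of these changes was not tested.

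In GFP, RLE factors called 1 member at 1 h and 1 at 3 h, and no filter on low counts called 0 and 1; in EIF2A at 1 h no filter called 0. DESeq2 called 1 at 1 h between constructs. Library totals reversed values near 0: at 3 h averaged Bcl2l1 (0.03), Bak1 (0.04) and Bid (0.04), in GFP Bcl2l1 (0.03), Bak1 (0.02) and Bid (0.01), and in EIF2A Bcl2l11 (0.10), Bcl2 (0.00), Bcl2l1 (0.04), Bak1 (0.06), Bid (0.07) and Bad (0.02). Between constructs they reversed Mcl1 at 0 h (-0.04) and Atf4 (-0.09) and Eif2a (-0.02) at 1 h, and of the interactions Bbc3 (-0.01 at 1 h, 0.03 at 3 h) and Bcl2l1 (0.01 at 3 h). Atf4 at 1 h between constructs was -0.01 with no filter, and the interaction of Bbc3 at 3 h 0.00 with DESeq2. The level of Bax per kb was 159 with the length of the longest transcript.

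With a replicate or a library left out, the members called ranged from 0 to 6 at 1 h averaged and 1 to 6 at 3 h averaged, from 0 to 5 and 1 to 6 in GFP, from 0 to 5 and 1 to 3 in EIF2A, from 0 to 6, 0 to 6 and 0 to 7 between constructs at 0, 1 and 3 h, and from 0 to 2 for the interaction at 3 h. Of the 2760 log2 values of the 9 members, Atf4, Ddit3 and Eif2a under the alternatives, 206 had another sign than without the alternative, 0 of them for a gene called in the fit without a block. With a replicate or library left out, those averaged over constructs ranged from -0.09 to 0.04 (Bak1, 1 h), -0.02 to 0.72 (Eif2a, 1 h) and -0.24 to 0.04 (Bid, 3 h). In GFP they ranged at 1 h from -0.25 to 0.00 (Bid), -0.32 to 0.07 (Bcl2l1), -0.17 to 0.09 (Bak1) and -0.45 to 1.02 (Eif2a), and at 3 h from -0.21 to 0.11 (Bcl2l1), -0.23 to 0.01 (Bak1) and -0.37 to 1.05 (Eif2a). In EIF2A they ranged at 1 h from -0.17 to 0.06 (Bid), -0.07 to 0.08 (Bak1) and -0.16 to 0.10 (Bax), and at 3 h from -0.11 to 0.14 (Mcl1), -0.37 to 0.08 (Bid) and -0.14 to 0.08 (Bcl2l11). Between constructs they ranged for Eif2a from -0.26 to 0.83, -0.24 to 1.04 and -0.25 to 0.95 at 0, 1 and 3 h, for Bak1 from -0.18 to 0.02, -0.14 to 0.05 and -0.18 to 0.04, for Atf4 from -0.04 to 0.04 at 1 h and -0.21 to 0.01 at 3 h, and for Bcl2l11 from -0.13 to 0.07 at 3 h. Interactions at 1 h ranged from -0.12 to 0.12 (Bbc3), -0.13 to 0.31 (Bid), -0.15 to 0.06 (Bad), -0.08 to 0.22 (Bcl2), -0.09 to 0.16 (Bak1), -0.30 to 0.18 (Ddit3), -0.07 to 0.21 (Bcl2l11), -0.60 to 0.87 (Eif2a) and -0.28 to 0.11 (Bcl2l1). At 3 h they ranged from -0.14 to 0.09 (Bbc3), -0.11 to 0.14 (Bak1), -0.26 to 0.27 (Bid), -0.23 to 0.08 (Bcl2l1), -0.10 to 0.14 (Bax), -0.62 to 0.80 (Eif2a) and -0.08 to 0.21 (Bad). Depth limits Pmaip1, with at most 4 counts in a library, and Bid.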

Other observations

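The balance of roles was also described by ratios of CPM per kb, chosen after the values were seen and given without a test. The ratio of Bbc3 to the summed guardians Bcl2, Bcl2l1 and Mcl1 was 0.111 ± 0.0139 (SD, n = 4) in GFP at 0 h, 0.131 ± 0.0144 at 1 h and 0.288 ± 0.0181 at 3 h. In EIF2A it was 0.122 ± 0.024, 0.159 ± 0.0316 and 0.376 ± 0.119. In both constructs the 3 h libraries lay above all at 0 and 1 h. The ratio of Bax to the same guardians went the other way with time in the means, from 1.78 ± 0.194 through 1.30 ± 0.332 to 1.16 ± 0.189 in GFP, and from 2.18 ± 0.329 through 1.94 ± 0.457 to 1.71 ± 0.475 in EIF2A, where the ranges of the times overlapped. Bax per kb exceeded Bak1 per kb in every library, from 5.7-fold to 16.5-fold.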
